A study of Mus musculus with 9 samples.

Results

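Enzymes that add or remove chemical groups on histones and DNA were followed through the differentiation of 3T3-L1 cells, a mouse preadipocyte line that fills with lipid droplets once induced. The members were chosen by symbol alone, as all genes whose symbol starts with Hdac, Sirt, Kdm, Kmt, Dnmt, Tet, Setd, Prmt or Ezh followed by a digit. This rule found 67 of the 19094 genes listed in at least 1 sample. They comprise 28 writers, which are 16 lysine methyltransferases (Kmt, Setd and Ezh), 8 protein arginine methyltransferases (Prmt) and 4 DNA methyltransferases (Dnmt). The 38 erasers are 11 zinc-dependent histone deacetylases (Hdac), 7 sirtuins (Sirt), 17 lysine demethylases (Kdm) and 3 TET dioxygenases (Tet). The remaining member, Dnmt3aos, is an antisense transcript with no enzyme of its own. The rule takes families by name, so enzymes that carry other names, such as the acetyltransferases, are described separately at the end, and some members act mainly on proteins other than histones.

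RNA was sequenced in 9 samples, 3 for each stage. Day 0 cells were confluent preadipocytes before induction. Day 4 cells had received an induction medium with dexamethasone, IBMX and insulin for 2 days and a maintenance medium with insulin for the next 2 days, and day 8 cells had received the maintenance medium for 4 days more. All samples came from 1 cell line, and according to the methods of the study the cells of a stage were pooled and each sample was a mixture of RNA, so the p-values measure the spread between these samples, which may be technical. The samples held between 18216114 and 20452144 expected counts, the number of reads that the RSEM program assigned to all genes, and the members took 0.475 to 0.491% of them on day 0, 0.454 to 0.466% on day 4 and 0.436 to 0.441% on day 8. Day 0 replicate 2 was the shallowest sample.

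The labels were checked against defining genes before the enzymes were described. The 9 adipocyte markers summed to 149, 144 and 144 FPKM (fragments scaled to transcript length and sequencing depth, a level that can be compared between genes) on day 0. They reached 5737, 6776 and 8162 FPKM on day 4 and 8270, 9014 and 8878 FPKM on day 8, with Fabp4, a fatty acid carrier, as the most abundant, and all 9 rose both from day 0 to day 4 and from day 0 to day 8. The 7 markers of preadipocytes and fibroblasts summed to 7236, 7283 and 7471 FPKM on day 0, 5497, 5454 and 5008 FPKM on day 4 and 7095, 6878 and 6964 FPKM on day 8, with Vim, an intermediate filament gene, as the most abundant. From day 0 to day 4, 1 of the 7 rose and 6 fell, and from day 0 to day 8, 3 rose (Col1a1, Col1a2 and Pdgfra) and 3 fell, with a median log2 fold change of 0.01. The extraction text of the labels names DRG as the tissue, yet the 8 markers of sensory neurons summed to no more than 1.63 FPKM in any sample. Snap25 led that list and was called higher on day 4, and 4 of the 8 neuron markers stayed under 0.1 FPKM in all samples. Markers of macrophages summed to at most 2.19 FPKM, those of Schwann cells to at most 1.97 FPKM and those of endothelial cells to at most 0.5 FPKM.

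Chromatin is marked by small chemical groups on the tails of histones and on the cytosines of DNA. Writers place methyl groups with S-adenosylmethionine as the donor, whereas lysine demethylases and TET enzymes oxidise them with alpha-ketoglutarate (the Kdm1 enzymes use FAD instead), and deacetylases remove acetyl groups either with a zinc ion or, in the sirtuins, at the cost of NAD. In fat cells these enzymes are best known for closing or opening the genes of the adipogenic regulators Pparg and Cebpa and for setting the response to hormones and nutrients.

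Expected counts were compared between days with edgeR's quasi-likelihood F-test, fitted over all genes with the 3 days in 1 model. A gene was called when its p-value adjusted over all 13154 tested genes was under 0.05 and its level changed more than 2-fold (a log2 fold change above 1 or below -1), and members that passed the adjusted p alone are described as having risen or fallen. Log2 fold changes are given ± SE. The filter on low counts kept 64 members, 26 writers and all 38 erasers. Of the 3 others, Dnmt3aos was listed above 0 in 1 sample, at 0.04 FPKM, and Prmt8, an arginine methyltransferase, in 1 sample at 0.02 FPKM. Dnmt3l, an inactive partner of the de novo DNA methyltransferases, was also too low to be tested, at 0.13, 0.30 and 0.22 FPKM on day 0, 0.09, 0.06 and 0.00 FPKM on day 4 and 0.85, 0.40 and 0.59 FPKM on day 8. The level was at least 1 FPKM in every sample for 58 members, and 7 members stayed below 1 FPKM throughout.

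Most members passed the adjusted p between day 0 and each later day, but few changed by more than 2-fold. From day 0 to day 4, 3 members were called higher (Hdac9, Hdac11 and Kdm7a) and 1 lower (Dnmt1), which is 6.25% of the 64 tested, where 17.8% of all tested genes were called (9.77% higher and 7.98% lower). At the adjusted p alone, 17 members were higher and 22 lower (60.9%), beside 69.2% of all genes (35.5% higher and 33.7% lower). From day 4 to day 8, 0 members were called higher and 0 lower, where 7.05% of all genes were called (4.24% higher and 2.81% lower). In that step edgeR found 16 members higher and 16 lower at the adjusted p alone (50% of those tested), beside 22.5% and 22.7% of all genes and 45.3% in both directions, and 19 higher and 18 lower at an unadjusted p under 0.05, and DESeq2, edgeR's exact test and limma on FPKM also called 0. Between day 0 and day 8, 5 members were called higher (Hdac9, Sirt3, Hdac11, Dnmt3a and Kdm7a) and 2 lower (Kmt2a and Dnmt1), 10.9% of those tested against 18.0% of all genes (10.3% higher and 7.7% lower). At the adjusted p alone, 18 were higher and 26 lower (68.8%) in that comparison, beside 71.0% of all genes (34.8% higher and 36.2% lower). The 3 comparisons share their samples pairwise, so their values stand side by side and do not support each other.

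The size of the changes was also modest. The median absolute log2 fold change of the members was 0.28 from day 0 to day 4, beside 0.37 for all tested genes. It was 0.16 from day 4 to day 8, beside 0.20, and 0.33 from day 0 to day 8, beside 0.39. In every comparison the median of all genes was thus higher than that of the members. The members spanned -1.05 (Dnmt1) to 2.05 (Hdac9) in the early step and -0.56 (Kmt2a) to 0.96 (Hdac9) in the late step. On log2(FPKM + 1), a scale on which the added 1 compresses low levels, limma called 1 member higher (Kdm7a) and 1 lower (Dnmt1) in the early step, and 0 higher and 1 lower (Dnmt1) over the whole process, where edgeR found 18 higher at the adjusted p and 19 at an unadjusted p under 0.05.

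**Figure D1:**
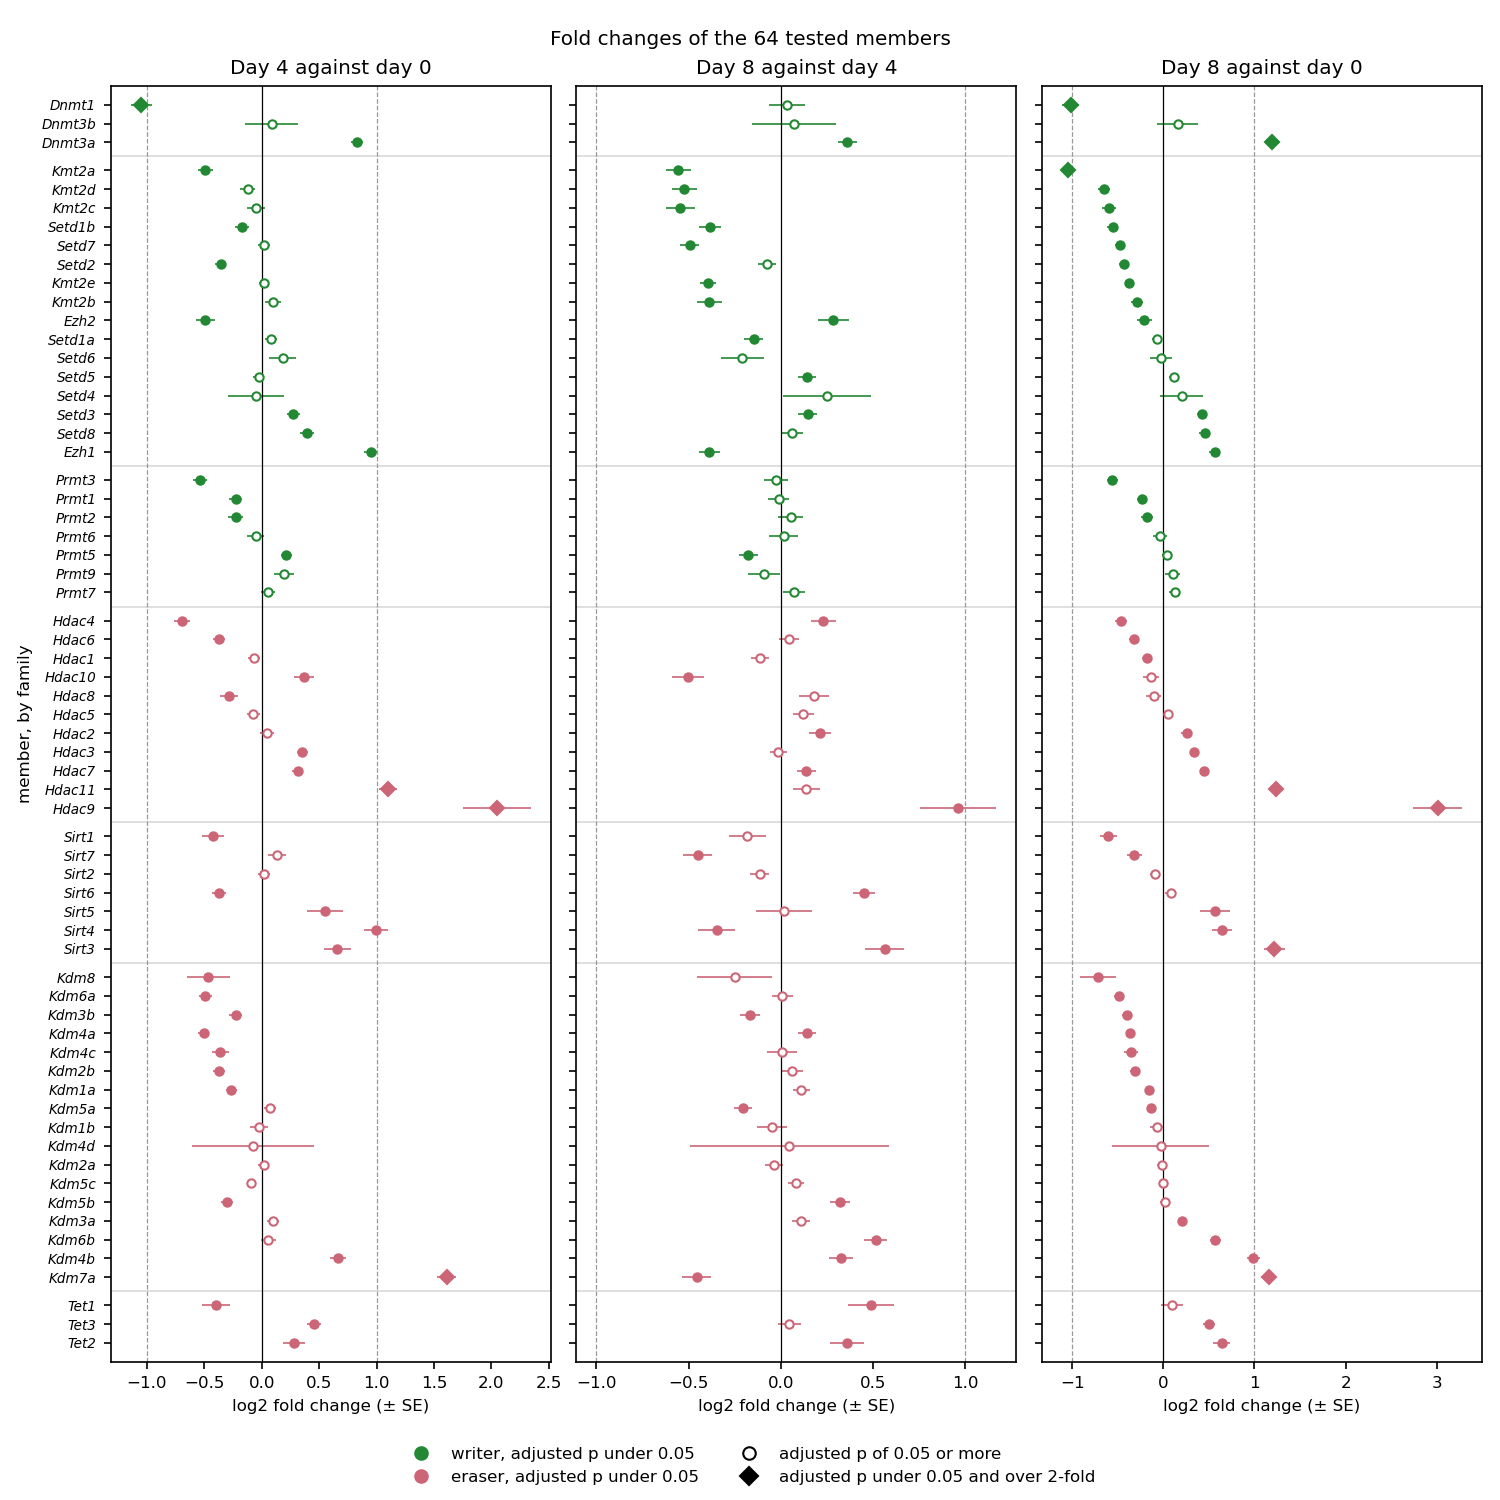
Log2 fold changes (x axis, ± SE from edgeR, 3 samples per day) of the 64 tested members, grouped by family, for day 4 against day 0, day 8 against day 4 and day 8 against day 0; green marks writers and red erasers, filled symbols an adjusted p under 0.05, diamonds members that also changed more than 2-fold, and the dashed lines a 2-fold change. The axes of the 3 panels differ in range, most members lie between the dashed lines, and the 5 Kmt2 genes all lie left of 0 in the middle panel.

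In the late step more writers fell than rose and more erasers rose than fell. Between day 0 and day 4, 5 writers rose and 8 fell of 26 tested, and 12 erasers rose and 14 fell of 38, with median log2 fold changes of -0.004 and -0.0019, beside 0.02 for all genes, of which 35.5% rose and 33.7% fell. Between day 4 and day 8, 4 writers rose and 10 fell with a median of -0.05, whereas 12 erasers rose and 6 fell with a median of 0.05, beside -0.01 for all genes, of which 22.5% rose and 22.7% fell. These values depended on the scaling. With library size alone the median log2 fold change of writers, early, was -0.07 and the median log2 fold change of erasers, early, was -0.0679. Scaled in this way the median log2 fold change of writers, late, was -0.0953 and the median log2 fold change of erasers, late, was 0.0088 (0.0005 with limma on FPKM), and the median of all genes moved alike, to -0.0495 early and -0.053 late. Over all 8 days, 4 writers rose and 13 fell (median -0.12) and 14 erasers rose and 13 fell (median -0.01), beside -0.02 for all genes, of which 34.8% rose and 36.2% fell. All of these medians are small beside the fold changes of single members, and members are not replicates, so no test was made of the difference between the classes.

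The summed level of the 28 writers was 458.9, 482.9 and 454.3 FPKM in the day 0 samples, 436.6, 444.2 and 448.7 FPKM in the day 4 samples and 417.6, 413.2 and 407.7 FPKM in the day 8 samples. On this scale all day 8 samples lay below all day 4 samples, and these below all day 0 samples. The 38 erasers summed to 633.4 ± 10.1 FPKM (mean ± SD, n = 3) on day 0, 624.7 ± 4.12 FPKM on day 4 and 634.1 ± 7.56 FPKM on day 8, and their samples overlapped between the days. For each FPKM of erasers there were therefore 0.712, 0.772 and 0.722 FPKM of writers on day 0, 0.695, 0.709 and 0.724 on day 4 and 0.65, 0.654 and 0.65 on day 8. This ratio overlapped between day 0 and day 4 and was lower in every day 8 sample. It does not set matched classes side by side. Zinc-dependent deacetylases (271.9 FPKM) and sirtuins (111.7 FPKM) made up most of the day 0 eraser mean, and the writers hold no acetyltransferases. Lysine methyltransferases alone had mean sums of 258.2, 266.5 and 241.7 FPKM on day 0, 4 and 8, beside 239.7, 216.7 and 227.7 FPKM for lysine demethylases. A sum gives most weight to abundant members, which were Prmt1 and Setd8 among the writers and Hdac7 and Sirt2 among the erasers. Of these, Prmt1 fell and Setd8 and Hdac7 rose from day 0 to day 8, and Sirt2 did not pass the adjusted p. Once FPKM was rescaled to the same total in every sample (TPM), the erasers had mean sums of 1459 TPM on day 0, 1381 TPM on day 4 and 1409 TPM on day 8, and on that scale all day 0 samples lay above all later ones. The course of the sums depended on the scaling. FPKM divided by the TMM factors, which correct for RNA composition and underlie the fold changes, an alternative chosen after seeing the data, gave mean sums of 446.7, 445.2 and 428.1 for writers on day 0, 4 and 8, with day 0 and day 4 overlapping and day 8 below both. For erasers it gave 608.1, 627.7 and 657.5, with day 0 and day 4 overlapping and day 8 above both. The ratio of writers to erasers within a sample is the same under each of these scalings.

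**Figure D2:**
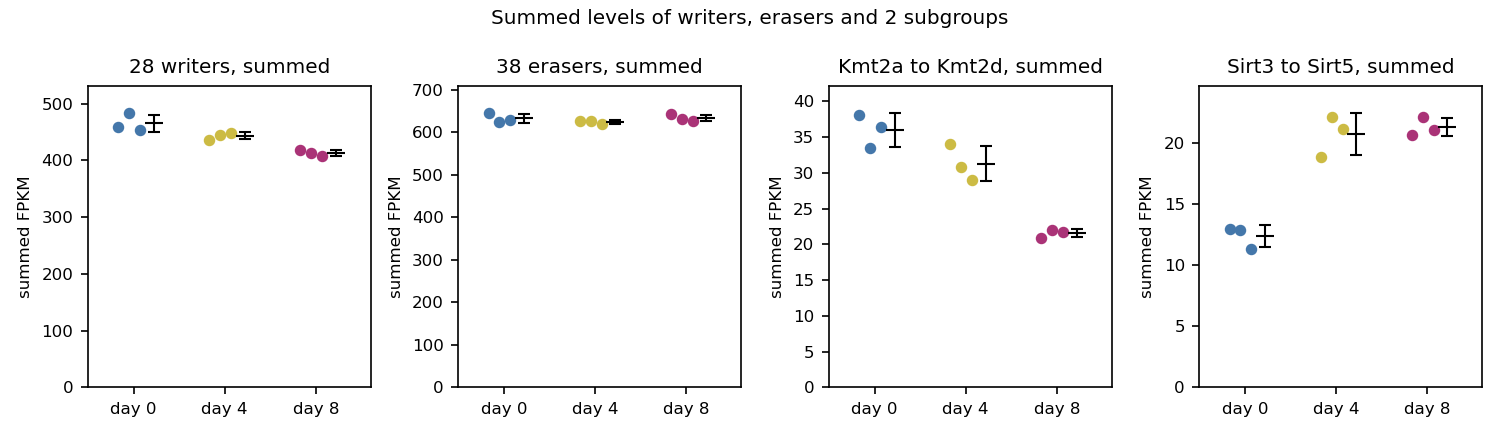
Summed FPKM (y axes, starting at 0) of the 28 writers, the 38 erasers, Kmt2a to Kmt2d and the mitochondrial sirtuins Sirt3 to Sirt5 on day 0, day 4 and day 8; points are samples and the bar beside them is the mean ± SD (n = 3). On FPKM as deposited the writers step down from 465.4 to 412.9 and the erasers stay between 620.0 and 644.9, whereas FPKM divided by the TMM factors gives means of 446.7, 445.2 and 428.1 and of 608.1, 627.7 and 657.5; the 4 Kmt2 genes are lowest on day 8, and the 3 mitochondrial sirtuins are higher at both later days than on day 0.

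Dnmt1, the maintenance enzyme that copies DNA methylation onto the new strand after replication, was the most abundant DNA methyltransferase. It was measured at 20.91, 27.75 and 21.02 FPKM on day 0, 11.72, 10.81 and 9.74 FPKM on day 4 and 11.23, 10.87 and 9.84 FPKM on day 8. All day 0 samples lay above all later samples, day 0 replicate 2 stood highest, and day 4 and day 8 overlapped. The log2 fold change was -1.05 ± 0.09 (adjusted p = 3.94e-08, edgeR) from day 0 to day 4, 0.03 ± 0.10 (adjusted p = 0.801) from day 4 to day 8 and -1.01 ± 0.09 (adjusted p = 5.69e-08) from day 0 to day 8. The 2-fold limit was only just passed. Without day 0 replicate 2 the early and the whole log2 fold change were -0.91 and -0.88, below 2-fold, and without day 4 replicate 3 the early one was -0.98. The whole change was also under 2-fold without day 8 replicate 3, with DESeq2's size factors in edgeR and in a model of the 2 days alone.

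Dnmt3a, which methylates DNA anew, moved the other way. Its levels were 4.99, 4.46 and 4.88 FPKM on day 0, 7.84, 8.31 and 8.29 FPKM on day 4 and 9.92, 10.22 and 10.13 FPKM on day 8. The days did not overlap and their order was the order of time. It rose by 0.83 ± 0.05 on the log2 scale in the early step (adjusted p = 9.31e-10, edgeR), by 0.36 ± 0.05 in the late step (adjusted p = 3.14e-05) and by 1.19 ± 0.05 over both (adjusted p = 9.22e-12). For each FPKM of Dnmt1 there were 0.239, 0.161 and 0.232 FPKM of Dnmt3a on day 0 and 0.883, 0.94 and 1.03 on day 8, so that the 2 enzymes started far apart and ended at nearly equal levels. Dnmt3b, the other de novo enzyme, lay between 0.36 and 0.56 FPKM in all samples and did not pass the test in any comparison.

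TET enzymes oxidise methylated cytosine, the first step of active demethylation. Tet3, the most abundant, was at 8.66, 7.31 and 7.44 FPKM on day 0, 10.03, 9.95 and 10.72 FPKM on day 4 and 10.01, 10.26 and 10.45 FPKM on day 8. It rose in the early step, by 0.46 ± 0.06 on the log2 scale (adjusted p = 6.41e-06, edgeR), and all day 0 samples lay below all later ones, while the late change was 0.05 ± 0.06 (adjusted p = 0.562). Tet2 rose in both steps, by 0.28 ± 0.10 (adjusted p = 0.0164) and 0.36 ± 0.09 (adjusted p = 0.00454), from a mean of 1.8 ± 0.216 FPKM on day 0 to 2.6 ± 0.225 FPKM on day 8 (SD, n = 3). Tet1 was lowest, under 1 FPKM throughout, and fell by 0.40 and then rose by 0.49 on the log2 scale. Together the 3 TET genes summed to 11.2, 9.5 and 9.8 FPKM on day 0 and 13.2, 13.6 and 13.3 FPKM on day 8. The 4 Dnmt genes, of which Dnmt1 fell and Dnmt3a rose, summed to 26.6, 33.0 and 26.5 FPKM on day 0, 20.1, 19.7 and 18.5 FPKM on day 4 and 22.4, 22 and 21.1 FPKM on day 8, so that day 4 was lowest and no days overlapped.

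Of 13 partners that maintain, read or repair DNA methylation, 3 were called lower from day 0 to day 4 and 3 from day 0 to day 8, where 7.98% and 7.7% of all genes were. Uhrf1, which recruits Dnmt1 to newly copied DNA, was at 14.94, 20.21 and 15.37 FPKM on day 0, 7.35, 7.39 and 7.04 FPKM on day 4 and 6.88, 7.10 and 6.76 FPKM on day 8. It changed by -1.15 ± 0.09 on the log2 scale in the early step (adjusted p = 1.11e-08, edgeR) and -0.03 ± 0.10 in the late step (adjusted p = 0.826). Like Dnmt1, it was highest in day 0 replicate 2 and did not separate day 4 from day 8. Hells, a helicase-like remodeller needed for DNA methylation of repeats, changed by -1.29 ± 0.11 (adjusted p = 2.76e-08) from day 0 to day 4. Gadd45a, a stress-induced gene linked to repair and demethylation, had another course, with 54.61, 50.27 and 53.00 FPKM on day 0, 13.50, 14.42 and 12 FPKM on day 4 and 44.99, 44.53 and 47.76 FPKM on day 8, and was thus low on day 4 only. Gadd45b changed in the late step, by -1.71 ± 0.11 (adjusted p = 3.66e-09).

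Genes of DNA replication and mitosis fell in the early step, as Dnmt1 and Uhrf1 did. Of 20 such genes, 19 fell from day 0 to day 4, where 33.7% of all genes did, with a median log2 fold change of -0.82, and Mki67, Bub1 and Top2a were called. With limma on log2(FPKM + 1), Bub1 fell short of 2-fold, at -0.91, and 2 of the 20 were called. With a pseudocount of 0.1, limma called 5. The 20 genes summed to 366, 493 and 378 FPKM on day 0, 245, 241 and 253 FPKM on day 4 and 283, 273 and 258 FPKM on day 8, Pcna, the sliding clamp of the replication machinery, being the most abundant, and none was at 0 in any group. In the late step 8 of the 20 rose, beside 22.5% of all genes, while Dnmt1 and Uhrf1 did not pass the adjusted p. Day 0 replicate 2 held 119.5% of the day 0 mean for this sum and 119.5% for Dnmt1, so the same library led in both. The part of this in the changes of Dnmt1 was not tested, and in these bulk samples fewer dividing cells and less RNA per cell cannot be told apart.

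**Figure D3:**
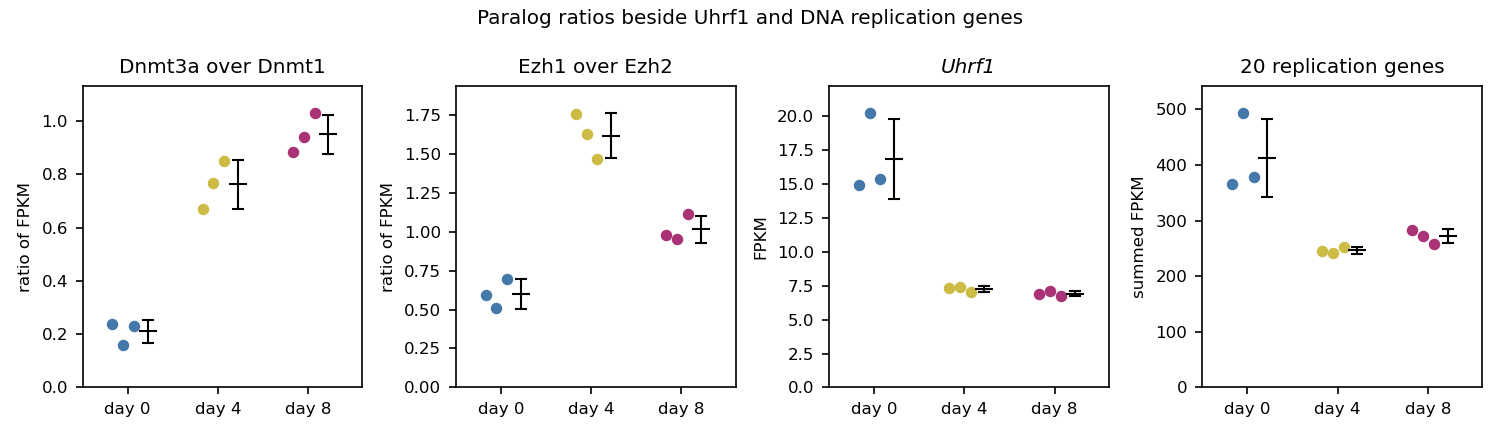
Ratios of the FPKM of Dnmt3a to Dnmt1 and of Ezh1 to Ezh2, the FPKM of Uhrf1 and the summed FPKM of 20 replication and mitosis genes (y axes, starting at 0) in each sample by day; points are samples and the bar beside them is the mean ± SD (n = 3). The Dnmt3a to Dnmt1 ratio climbs from 0.210 to 0.951 on average, the Ezh1 to Ezh2 ratio peaks on day 4 at 1.61, and day 0 replicate 2 is the highest point for Uhrf1 and for the replication genes.

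Promoter windows of RefSeq (GRCm38.p6, 250 bases before to 50 after a gene's start) matched 56 of the 67 members, with 78 windows. The letters TTTGGCGC or TTTCCCGC, forms of the site bound by E2F factors of the cell cycle, occurred on either strand in 3 of these windows (3.85%) and in 1.56% of all 32851 windows. These 3 windows are shown because they are the ones that hold the letters. Of their genes, Dnmt1 and Ezh2 fell and Sirt4 rose from day 0 to day 4, where 33.7% of all genes fell and 35.5% rose. Capitals mark the letters found, each sequence reads 5′ to 3′ in the direction of its gene, and a match is a description of the sequence, not a bound site.
Dnmt1 (chr9:20952574-20952873, minus strand): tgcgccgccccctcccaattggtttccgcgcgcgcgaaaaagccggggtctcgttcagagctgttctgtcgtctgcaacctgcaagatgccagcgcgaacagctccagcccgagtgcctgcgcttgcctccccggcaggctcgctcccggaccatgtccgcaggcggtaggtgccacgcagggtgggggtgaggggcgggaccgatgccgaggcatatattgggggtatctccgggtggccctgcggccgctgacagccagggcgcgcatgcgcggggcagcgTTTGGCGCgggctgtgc
Ezh2 (chr6:47594981-47595280, minus strand): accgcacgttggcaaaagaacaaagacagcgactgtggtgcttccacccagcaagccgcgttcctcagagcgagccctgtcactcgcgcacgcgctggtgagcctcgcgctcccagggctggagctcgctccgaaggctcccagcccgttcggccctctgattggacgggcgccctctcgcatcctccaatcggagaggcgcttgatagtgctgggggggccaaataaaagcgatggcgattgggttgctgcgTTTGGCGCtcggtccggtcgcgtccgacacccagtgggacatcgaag
Sirt4 (chr5:115484248-115484547, minus strand): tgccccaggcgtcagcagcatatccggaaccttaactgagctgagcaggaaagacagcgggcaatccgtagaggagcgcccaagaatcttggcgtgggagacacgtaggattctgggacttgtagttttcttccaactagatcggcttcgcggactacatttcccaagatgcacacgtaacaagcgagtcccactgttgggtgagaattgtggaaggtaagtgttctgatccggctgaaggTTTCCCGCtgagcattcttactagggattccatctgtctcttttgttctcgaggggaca
Dnmt1 and Ezh2 carry the first form of the letters, whereas Sirt4 carries the second. Dnmt1 has 2 further windows, neither of which holds the letters. Of the other letters searched on both strands, the CCAAT box (CCAAT) occurred in 38.5% of the members' windows and 37.4% of all windows, and the core motif of nuclear receptors (AGGTCA) in 12.8% and 16.3%. The palindrome of C/EBP factors (TTGNNCAA) occurred in 3.85% and 6.40%, and the cyclic AMP response element (TGACGTCA) in 1.28% and 1.79%.

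Ezh1 and Ezh2 are the alternative catalytic subunits of the Polycomb repressive complex PRC2, which methylates histone H3 at silenced genes. Ezh1, the form of resting cells, was at 7.35, 7.24 and 7.80 FPKM on day 0, 14.34, 13.46 and 13.49 FPKM on day 4 and 10.26, 9.93 and 10.42 FPKM on day 8, so that day 4 was highest and no days overlapped. It rose by 0.95 ± 0.06 on the log2 scale (adjusted p = 3.05e-10, edgeR), close to 2-fold, and then changed by -0.39 ± 0.05 (adjusted p = 2.88e-05). Ezh2, the form of dividing cells, was at 12.37, 14.23 and 11.19 FPKM on day 0, 8.18, 8.28 and 9.20 FPKM on day 4 and 10.50, 10.40 and 9.35 FPKM on day 8. It was lowest on day 4, below all day 0 samples, and its changes were -0.49 ± 0.08 (adjusted p = 6.62e-05) and 0.28 ± 0.08 (adjusted p = 0.012). Ezh2 thus led on day 0, Ezh1 led in every day 4 sample, and on day 8 the ratio of Ezh1 to Ezh2 was 0.977, 0.955 and 1.11, near equal levels. Among 9 tested PRC2 partners, 1 rose and 5 fell at the adjusted p from day 0 to day 4, beside 35.5% and 33.7% of all genes, and 2 were called higher from day 0 to day 8, beside 10.3%. Of these, Jarid2, a subunit that guides PRC2 to its targets, changed by 1.04 ± 0.08 (adjusted p = 3.85e-09), and Phf19 by 1.07 ± 0.39 (adjusted p = 0.0234) at no more than 0.25 FPKM. DESeq2 called Jarid2 but not Phf19 (adjusted p = 0.0565), and limma called neither, with 0.70 and 0.12 on log2(FPKM + 1) and 0.90 and 0.56 with a pseudocount of 0.1.

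The Kmt2 genes encode the large MLL proteins, most of which methylate lysine 4 of histone H3 at promoters and enhancers, and all 5 fell in the late step. Kmt2a was the one called, over the whole process. It was at 9.57, 8.47 and 9.31 FPKM on day 0, 6.81, 6.03 and 5.77 FPKM on day 4 and 3.96, 3.98 and 4.32 FPKM on day 8. No days overlapped, and the order was downward at each step, by -0.49 ± 0.07 (adjusted p = 6.50e-06, edgeR), -0.56 ± 0.07 (adjusted p = 6.80e-06) and in all -1.04 ± 0.07 (adjusted p = 9.01e-10). Kmt2e, the most abundant of the family and without known methyltransferase activity, was at 21.92, 22.61 and 22.60 FPKM on day 0, 21.76, 21.07 and 22.25 FPKM on day 4 and 15.81, 16.44 and 15.77 FPKM on day 8. Day 0 and day 4 overlapped, and all day 8 samples were lower, with a late change of -0.39 ± 0.04 (adjusted p = 1.94e-06).

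In the early step Kmt2b, Kmt2c and Kmt2d changed by 0.10, -0.05 and -0.12 on the log2 scale, none past the adjusted p. In the late step Kmt2b, a promoter methyltransferase, changed by -0.39 ± 0.07 (adjusted p = 2.35e-04, edgeR). Kmt2c and Kmt2d, the enhancer methyltransferases, changed by -0.54 ± 0.08 (adjusted p = 4.17e-05) and -0.52 ± 0.07 (adjusted p = 1.04e-05). Kmt2a to Kmt2d together summed to 38.1, 33.4 and 36.4 FPKM on day 0, 34.0, 30.9 and 29.1 FPKM on day 4 and 20.9, 22 and 21.8 FPKM on day 8, the day 8 samples being lower than all others. In the late step 22.7% of all genes fell at the adjusted p, against 5 of these 5 and 9 of the 16 lysine methyltransferases, whose median was -0.30. Of 12 core and accessory subunits of these complexes, 0 were called by edgeR, DESeq2, the exact test or limma in any comparison, where edgeR called 17.8% of all genes early, 7.05% late and 18.0% over the whole process. At the adjusted p, 3 rose and 6 fell early, beside 35.5% and 33.7% of all genes. In the late step 2 rose and 1 fell (2 and 3 at an unadjusted p under 0.05), beside 22.5% and 22.7%. Over the whole process 1 rose and 6 fell, beside 34.8% and 36.2%.

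Among the Setd genes, Setd8 (Kmt5a in newer naming), which places a single methyl group on histone H4, was the most abundant. It was at 56.11, 62.76 and 56.56 FPKM on day 0, 67.61, 72.60 and 81.21 FPKM on day 4 and 76.00, 76.48 and 70.01 FPKM on day 8. All day 0 samples lay below all later samples and the later days overlapped, the early rise being 0.39 ± 0.06 on the log2 scale (adjusted p = 2.66e-05, edgeR). Of the 9 Setd genes, 2 rose and 2 fell in the early step, where 35.5% and 33.7% of all genes did, and 2 rose and 3 fell in the late step, where 22.5% and 22.7% did. Setd7, a monomethyltransferase of histone H3 and of many other proteins, changed late, by -0.49 ± 0.05 (adjusted p = 1.17e-06). Setd1b, a catalytic subunit of the SET1 complex, changed by -0.17 ± 0.06 early (adjusted p = 0.016) and by -0.38 ± 0.06 late (adjusted p = 6.62e-05). Setd2, which methylates histone H3 in the wake of RNA polymerase, changed early, by -0.36 ± 0.05 (adjusted p = 6.40e-06). Setd1a cannot be read with certainty, because other genes' transcripts contain 51.2% of its 50-base stretches.

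Among the 7 arginine methyltransferases tested none was called, where 17.8% of all genes were early and 18.0% from day 0 to day 8. Prmt1, the main enzyme for asymmetric arginine methylation, had the highest mean level of all members over the 9 samples, although Setd8 and Hdac7 lay above it in the means of day 4 and day 8. It was at 81.24, 90.42 and 80.35 FPKM on day 0, 64.32, 71.03 and 70.30 FPKM on day 4 and 69.40, 63.48 and 65.21 FPKM on day 8. All day 0 samples stood above all later ones, and the log2 fold change was -0.23 ± 0.06 early (adjusted p = 0.00187, edgeR) and -0.01 ± 0.06 late (adjusted p = 0.893). Of the 7, 3 fell and 1 rose from day 0 to day 4, beside 33.7% and 35.5% of all genes. The largest change was that of Prmt3, which modifies a ribosomal protein, at -0.54 ± 0.06 (adjusted p = 1.14e-06), and the one that rose was Prmt5, the main symmetric enzyme, by 0.22 ± 0.05 (adjusted p = 0.0011). From day 0 to day 8, 3 fell, beside 36.2% of all genes, and 4 did not pass the adjusted p. In the late step only Prmt5 passed the adjusted p, at -0.18 ± 0.05 (adjusted p = 0.00894). The 8 genes summed to 178.4 ± 8.52 FPKM on day 0 and 149.3 ± 5.31 FPKM on day 8 (mean ± SD, n = 3).

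Lysine demethylases reverse what the Kmt and Ezh enzymes write. Kdm7a, which removes repressive methyl groups from histone H3, had the largest early rise of the family. It was at 3.60, 2.84 and 3.11 FPKM on day 0, 9.72, 8.27 and 9.97 FPKM on day 4 and 6.62, 6.91 and 6.21 FPKM on day 8. No days overlapped, and day 4 was highest. The log2 fold change was 1.61 ± 0.08 early (adjusted p = 5.02e-11, edgeR), -0.46 ± 0.08 late (adjusted p = 1.73e-04) and 1.16 ± 0.08 in all (adjusted p = 3.77e-09). Kdm4a, a demethylase of histone H3, had the highest mean of the family over the 9 samples, a rank it held on day 0 but not on day 4 (Kdm2a) or day 8 (Kdm6b). It was at 35.43, 33.42 and 33.48 FPKM on day 0, 23.04, 23.40 and 22.42 FPKM on day 4 and 24.05, 24.31 and 25.18 FPKM on day 8. It fell by 0.51 on the log2 scale (SE 0.05; adjusted p = 9.03e-08) and then rose by 0.14 ± 0.05 (adjusted p = 0.0252), with day 0 above all later samples.

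Kdm4b, a close relative of Kdm4a, went up instead. Its levels were 11.98, 10.44 and 12.28 FPKM on day 0, 16.99, 18.75 and 16.85 FPKM on day 4 and 20.46, 21.32 and 22.04 FPKM on day 8, with no overlap between days. Its whole change was 0.99 ± 0.07 (adjusted p = 1.38e-09, edgeR), just under 2-fold, and DESeq2, at 1.00, called it. For each FPKM of Kdm4a there were 0.338, 0.312 and 0.367 FPKM of Kdm4b on day 0 and 0.851, 0.877 and 0.875 on day 8. The other relatives were Kdm4c, which changed by -0.36 ± 0.08 early (adjusted p = 6.23e-04), and Kdm4d, which was under 0.3 FPKM in all samples. Kdm6a and Kdm6b, which remove the methyl groups that Ezh enzymes place, also parted. Kdm6a changed early, by -0.49 ± 0.06 (adjusted p = 8.49e-07), and Kdm6b late, by 0.51 ± 0.06 (adjusted p = 5.10e-06), to 27.64, 29.07 and 30.34 FPKM on day 8 from 21.35, 21.58 and 20.01 FPKM on day 4. Across the 17 Kdm genes, 2 rose and 8 fell early, beside 35.5% and 33.7% of all genes, and 4 rose and 3 fell late, beside 22.5% and 22.7%.

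Of the 11 zinc-dependent deacetylases, Hdac9 and Hdac11 were called, both early and over the whole process (18.2%). This is near the share of all genes called, 17.8% early and 18.0% over the whole process. Hdac9, a class IIa deacetylase known as a brake on adipogenesis, was the least abundant of the 11, at 0.11, 0.05 and 0.09 FPKM on day 0, 0.38, 0.38 and 0.36 FPKM on day 4 and 0.79, 0.80 and 0.62 FPKM on day 8. The expected counts behind these levels were 15, 5 and 10.98 on day 0 and 88, 87 and 63 on day 8, so the fold changes carry a wide error. It nevertheless rose in each step without overlap, by 2.05 ± 0.29 early (adjusted p = 1.18e-05, edgeR), 0.96 ± 0.21 late (adjusted p = 0.00134) and 3.01 ± 0.27 in all (adjusted p = 4.11e-08). The late rise passed 2-fold without day 4 replicate 1, at 1.04, and without day 8 replicate 3, at 1.09. On log2(FPKM + 1), limma gave 0.34 early and 0.68 in all.

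Hdac11, the single class IV deacetylase, also removes long fatty acyl groups from proteins. It was at 4.27, 3.80 and 4.39 FPKM on day 0, 8.49, 8.69 and 8.35 FPKM on day 4 and 9.63, 8.95 and 8.63 FPKM on day 8. All day 0 samples lay below all later ones and the later days overlapped, with 1.10 ± 0.08 early (adjusted p = 3.50e-09, edgeR), 0.14 ± 0.07 late (adjusted p = 0.139) and 1.24 ± 0.08 in all (adjusted p = 7.23e-10). Genes on the opposite strand overlap 17.9% of its exon bases, and whether the libraries kept the strand is not given in the sources used here. Hdac7, also class IIa, was the most abundant deacetylase, at 63.85, 59.09 and 59.62 FPKM on day 0, 73.04, 73.63 and 71.44 FPKM on day 4 and 82.05, 73.48 and 75.62 FPKM on day 8. Day 0 lay below both later days, which overlapped. On FPKM divided by the TMM factors, day 4 and day 8 did not overlap for either Hdac11 or Hdac7. Hdac7 rose by 0.31 ± 0.05 (adjusted p = 5.02e-05) and 0.14 ± 0.05 (adjusted p = 0.0378), whereas Hdac4, of the same class, changed by -0.69 ± 0.07 early (adjusted p = 1.23e-07), with 22.4% of its exon bases overlapped on the opposite strand. The fourth, Hdac5, did not pass the test in any comparison.

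The class I enzymes are Hdac3, Hdac8 and the pair Hdac1 and Hdac2, which form the catalytic cores of the SIN3, CoREST and NuRD complexes. They summed to 147.9 ± 4.71 FPKM on day 0, 150.8 ± 3.85 FPKM on day 4 and 149.4 ± 3.67 FPKM on day 8 (mean ± SD, n = 3). Their samples overlapped between all days on this scale, but on FPKM divided by the TMM factors (means of 142.0, 151.5 and 155.0) all day 0 samples lay below all later ones. Hdac3, the enzyme of the NCoR complex, rose early by 0.35 ± 0.05 (adjusted p = 4.44e-06, edgeR). Hdac2 rose late by 0.21 ± 0.06 (adjusted p = 0.00787). The others went down, Hdac8 by -0.29 ± 0.08 early (adjusted p = 0.0049) and Hdac1 by -0.18 ± 0.05 from day 0 to day 8 (adjusted p = 0.00419). Hdac1 cannot be read with certainty, because other genes' transcripts in GENCODE M21 contain 35.3% of its 50-base stretches. Its expected counts were nevertheless whole numbers in every sample, and it is part of the class I sum. Of 21 subunits of the NCoR, SIN3, CoREST and NuRD complexes, 6 rose and 12 fell early, beside 35.5% and 33.7% of all genes, and 10 rose and 1 fell late, beside 22.5% and 22.7%. The one called was Sap30 of the SIN3 complex, at -1.12 ± 0.19 early (adjusted p = 7.10e-05, edgeR), a change under 2-fold with limma on log2(FPKM + 1), at -0.92.

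**Figure D4:**
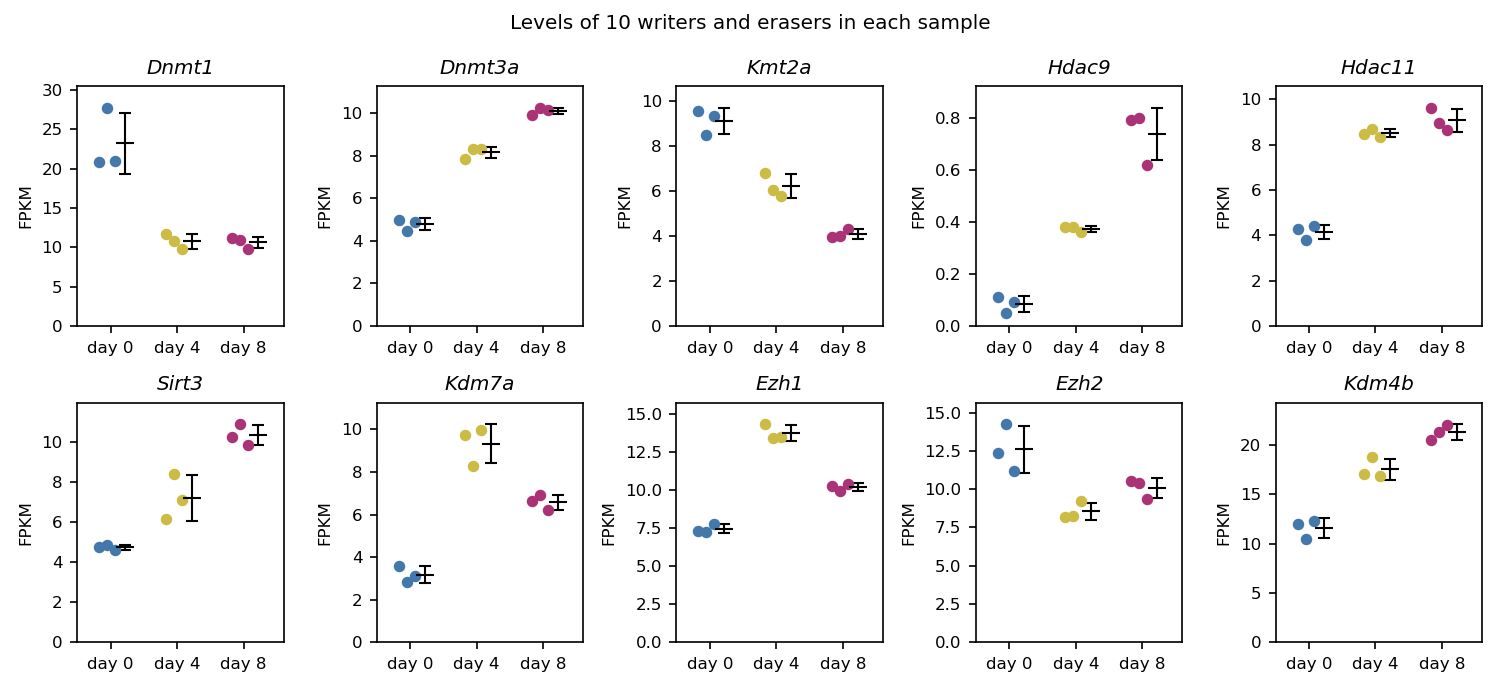
FPKM (y axes, each starting at 0 with its own range) of the 7 called members and of Ezh1, Ezh2 and Kdm4b in each of the 9 samples by day; points are samples and the bar beside them is the mean ± SD (n = 3). Dnmt3a, Hdac9, Sirt3 and Kdm4b climb from day to day, Kdm7a and Ezh1 peak on day 4, Kmt2a steps down, and Dnmt1 drops once, with day 0 replicate 2 at 27.75 FPKM.

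Sirtuins are grouped by the compartment in which they work. The mitochondrial Sirt3, Sirt4 and Sirt5, which act on metabolic enzymes more than on histones, summed to 13.0, 12.9 and 11.4 FPKM on day 0, 18.9, 22.1 and 21.2 FPKM on day 4 and 20.7, 22.1 and 21.1 FPKM on day 8. The nuclear and cytosolic Sirt1, Sirt2, Sirt6 and Sirt7 summed to 101.0, 96.2 and 100.7 FPKM on day 0, 93.0, 93.7 and 90.7 FPKM on day 4 and 87.4, 84.6 and 83.9 FPKM on day 8. Most of that sum is Sirt2, which did not pass the adjusted p in any comparison, and of the 4 genes only Sirt1 and Sirt7 fell from day 0 to day 8. For the mitochondrial sum day 0 was apart from both later days, which overlapped. For the other sum no days overlapped on FPKM, while day 0 and day 4 did on FPKM divided by the TMM factors.

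Sirt3, the main mitochondrial deacetylase, was at 4.75, 4.85 and 4.63 FPKM on day 0, 6.14, 8.41 and 7.11 FPKM on day 4 and 10.28, 10.89 and 9.88 FPKM on day 8. No days overlapped, although the day 4 samples spread widely. It rose by 0.66 ± 0.12 (adjusted p = 9.77e-05, edgeR), 0.56 ± 0.11 (adjusted p = 4.08e-04) and in all 1.22 ± 0.11 (adjusted p = 5.98e-08), and 12.7% of its exon bases are overlapped on the opposite strand, by Psmd13 and Ric8a. Sirt4, a mitochondrial lipoamidase and deacylase, rose early by 0.99 ± 0.11 (adjusted p = 3.74e-07), just under 2-fold, from 6.15, 5.49 and 4.89 FPKM to 9.71, 10.62 and 11.18 FPKM, and changed late by -0.35 ± 0.10 (adjusted p = 0.01). Sirt5, a desuccinylase, rose early by 0.55 ± 0.16 (adjusted p = 0.00591). All 3 were higher at both later days than on day 0.

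Sirt2, a mainly cytosolic deacetylase, was the most abundant sirtuin, at 61.56, 57.83 and 63.43 FPKM on day 0, 61.24, 60.03 and 57.03 FPKM on day 4 and 54.60, 51.75 and 52.41 FPKM on day 8. Its log2 fold changes of 0.02, -0.11 and -0.10 did not pass the adjusted p, although the FPKM of all day 8 samples lay below all others, a gap to day 0 that was lost once FPKM was divided by the TMM factors. Sirt1, a nuclear deacetylase that represses Pparg, changed by -0.42 ± 0.10 early (adjusted p = 9.73e-04, edgeR) and -0.60 ± 0.10 in all (adjusted p = 3.98e-05), from 4.16, 3.90 and 4.29 FPKM on day 0 to 2.76, 2.69 and 2.13 FPKM on day 8. Sirt6, a nuclear deacetylase, was low on day 4 only, with -0.37 ± 0.06 early (adjusted p = 5.12e-05) and 0.45 ± 0.06 late (adjusted p = 1.70e-05). Sirt7, the nucleolar sirtuin, changed late, by -0.45 ± 0.08 (adjusted p = 2.02e-04).

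Enzymes with the same roles but other names were counted from lists. Of 14 histone acetyltransferases, the writers opposite the deacetylases, 4 rose and 7 fell early (beside 35.5% and 33.7% of all genes) and 3 rose and 6 fell late (beside 22.5% and 22.7%). The one called was Ncoa1, a coactivator of nuclear receptors with weak acetyltransferase activity, at 6.59, 6.44 and 6.93 FPKM on day 0, 11.24, 11.79 and 12.54 FPKM on day 4 and 13.58, 14.46 and 14.63 FPKM on day 8, a whole change of 1.21 ± 0.06 (adjusted p = 1.27e-11, edgeR). Of 23 tested histone methyltransferases outside the families above, 5 rose and 10 fell early and 4 rose and 14 fell in all, where 34.8% and 36.2% of all genes did. Suv420h2, which writes di- and trimethylation on histone H4 downstream of Setd8, was called higher over the whole process at 1.19 ± 0.09 (adjusted p = 6.75e-09). Mecom, a zinc finger protein, was called lower early at -1.11 ± 0.08 (adjusted p = 1.49e-09), and Smyd1, a muscle methyltransferase, was called higher early at 4.04 ± 0.47 (adjusted p = 1.20e-06) with no more than 0.66 FPKM in any sample. Of 7 other demethylases, 3 rose and 3 fell early and 2 rose and 2 fell late, numbers set against the same shares of all genes, and Hr was called higher late at 1.54 ± 0.14 (adjusted p = 2.27e-07). With limma on log2(FPKM + 1), none of these 5 genes passed 2-fold (0.99 for Ncoa1, 0.98 for Suv420h2, -0.95 for Mecom, 0.48 for Smyd1 and 0.79 for Hr), and with a pseudocount of 0.1 all 5 did.

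Several genes that make or use up the cofactors of these enzymes rose. Of 16 tested, 5 were called higher and 0 lower from day 0 to day 4, beside 9.77% and 7.98% of all genes. DESeq2, the exact test and limma also called 5 higher and 0 lower. At the adjusted p, 9 rose and 2 fell early (9 and 2 at an unadjusted p under 0.05), beside 35.5% and 33.7% of all genes. In the late step 3 rose and 6 fell, beside 22.5% and 22.7%. Idh3a, a subunit of the NAD-dependent isocitrate dehydrogenase that makes alpha-ketoglutarate, was at 20.01, 21.91 and 19.60 FPKM on day 0, 69.88, 76.39 and 92.44 FPKM on day 4 and 100.52, 106.99 and 102.16 FPKM on day 8, an early change of 2.02 ± 0.08 (adjusted p = 2.66e-12, edgeR). Idh1 and Idh2, the NADP-dependent forms, rose early by 1.19 and 1.28. Nnmt, which uses up S-adenosylmethionine by methylating nicotinamide, was at 17.90, 18.64 and 18.82 FPKM on day 0, 59.10, 59.58 and 57.60 FPKM on day 4 and 57.19, 55.29 and 51.02 FPKM on day 8, with 1.74 ± 0.06 early (adjusted p = 3.08e-13). Nampt, the rate-limiting enzyme of NAD salvage, rose early by 1.60 ± 0.06 (adjusted p = 3.37e-13). Acss2, which makes acetyl-CoA from acetate, reached 18.12, 19.25 and 21.30 FPKM on day 8 from 6.03, 6.80 and 5.66 FPKM on day 0, a whole change of 1.78 ± 0.09 (adjusted p = 1.84e-11).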

How the data were processed

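Levels of mRNA were measured by RNA sequencing in 9 samples, with day and replicate taken from their titles. According to the methods, the authors filtered the reads for quality, adaptors and unknown bases, used HISAT/Bowtie2 for mapping and RSEM for quantification, and the submitters' processing notes also name CASAVA 1.4. The genome build, the RSEM version and the strandedness are not given in the sources used here, and the labels name a BGIseq500 library kit where the methods name an Illumina platform. The deposited expected counts are estimated counts per gene without normalization, and 29.8% are not whole. Deposited beside them are FPKM values, which the authors obtained by scaling to gene length and sample depth. The deposited length column holds the mean transcript length of a gene, in bases.

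Expected counts were rounded and fitted in R 4.3.3 with edgeR 4.0.16 (filterByExpr by day, TMM factors, glmQLFit and glmQLFTest, all 9 samples, 1 coefficient per day, no covariate), with Benjamini-Hochberg adjustment over the 13154 genes tested. Calls needed a change of more than 2-fold beside an adjusted p under 0.05, as in the study's statistics section. The SE is the log2 fold change divided by the square root of F. DESeq2 1.42.0 and limma 3.58.1 served as alternatives, with the pseudocounts 1 and 0.1 for log2(FPKM). At these depths 3 counts correspond to 0.147 to 0.165 CPM, which limits what can be detected and covers counting error only. Replicates differed by more than counting noise in all 9 pairs (chi-square per gene of 2.40 to 10.7), so no pair was treated as 1 library deposited again. That check does not tell separate cultures from separate libraries of 1 RNA pool. Steps were tested on simulated data.

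Values in every sample are given for members called in at least 1 comparison and for the most abundant member of each family, and other members complete a class. From other lists at most 6 called genes are named. The members, lists and tests were chosen with earlier results of these data known. Shared stretches and overlaps come from GENCODE M21, and promoter windows from RefSeq (GRCm38.p6).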

Additional observations from a re-analysis of the deposited data

How the results depend on the processing

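Counts of called members depended mainly on the fold limit and the pseudocount. At the adjusted p alone they were 17 higher and 22 lower early, 16 and 16 late, and 18 and 26 over the whole process. The shares of all genes were 35.5% and 33.7% early, 22.5% and 22.7% late, and 34.8% and 36.2% over the whole process. With limma on log2(FPKM + 1), 1 was higher early, 0 higher and 1 lower in all. edgeR's test against a 1.5-fold change (glmTreat) gave 6 higher early, no filter 2 lower early and 1 higher late, and DESeq2's factors (RLE) in edgeR or a model of the 2 days alone 1 lower in all. Leaving out each sample in turn gave 3 to 4 higher and 0 to 1 lower early, 0 to 1 higher and 0 lower late, and 5 to 6 higher and 1 to 2 lower in all. For the other alternative settings, here and above, the share of all genes called is not given. A shift in those counts is therefore not read as a result about the members.

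For the median log2 fold change of writers, early, the values were -0.053 with upper-quartile factors, -0.07 with library size alone, and -0.0522 and -0.0713 with limma (pseudocounts 1 and 0.1). For the median log2 fold change of erasers, early, these were -0.0508, -0.0679, -0.0408 and -0.0668. For the median log2 fold change of writers, late, they were -0.0953 with library size alone, -0.0864 and -0.0935 with limma, -0.0144 with no filter, and -0.0605 to -0.0217 leaving out 1 sample. For the median log2 fold change of erasers, late, they were 0.0735 (RLE), 0.0088 (library size), 0.0748 (DESeq2), 0.0005 and 0.0005 (limma), and 0.054 to 0.0892 leaving out 1 sample. For the median log2 fold change of writers, whole, they were -0.177 (upper quartile), -0.2323 (library size), -0.2214 and -0.2331 (limma) and -0.0462 (no filter). For the median log2 fold change of erasers, whole, they were -0.0688, -0.124, -0.1 and -0.1237 with the first 4 of these, and -0.0274 to 0.0227 leaving out 1 sample. Library size alone also shifted the median of all genes, from 0.0164 to -0.0495 early, from -0.0077 to -0.053 late and from -0.0178 to -0.1291 over the whole process.

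Rescaled to TPM, writers summed to 1072, 979.6 and 917.5 and erasers to 1459, 1381 and 1409 at day 0, 4 and 8. Divided by the TMM factors, an alternative added after seeing the data, the FPKM sums were 446.7, 445.2 and 428.1 for writers and 608.1, 627.7 and 657.5 for erasers. Without mitochondrial sirtuins and Setd3, Setd6, Kmt2e and Dnmt3l, the FPKM sums were 411.4, 385.7 and 359.8 for writers and 621.0, 604.0 and 612.8 for erasers. In this eraser set all day 0 samples (612.82 to 631.9 FPKM) lay above all day 4 samples (598.85 to 608.98 FPKM). The 2 days overlapped once FPKM was divided by the TMM factors.

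Among the named members no direction of a called change reversed under any alternative. With limma on log2(FPKM + 1), Hdac11 (0.89 and 0.97, early and whole), Hdac9, Kdm7a (0.86), Dnmt3a (0.94), Sirt3 (0.98) and Kmt2a (-0.99), the last 4 over the whole process, fell short of 2-fold. Dnmt1 did so over the whole process with RLE factors and in the model of the 2 days alone. With a replicate block the counts were unchanged, at 3 and 1 early, 0 and 0 late and 5 and 2 in all. After each day's mean was removed, same-numbered samples of different days correlated at -0.0348 to 0.0750 (mean 0.0307). Samples with different numbers correlated at -0.1 to 0.0628 (mean -0.0154). The main model therefore holds no pairing, although such small correlations cannot exclude one. Depth limits Dnmt3l, Prmt8 and Dnmt3aos, which the filter on low counts left out.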

Other observations

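The deposited length of a gene is the mean length of its transcripts weighted by their estimated abundance, so it moves when a gene's reads are assigned to other transcripts. For Kdm2b, a CpG island demethylase with a short and a long form, it was 4338, 4156 and 4340 bases at day 0, 4021, 3996 and 3954 bases at day 4 and 4041, 3975 and 4100 bases at day 8. All day 0 samples were longer than all later ones, and the means differed by -6.73% at day 4 and by -5.60% at day 8 (two-sided exact permutation test, p = 0.1 in both, the smallest p that 3 against 3 samples allow). Of 26 members with more than 1 transcript, Kdm2b was the single one that moved by over 3% without overlap at both later days (3.85%), beside 3.31% of 3865 such genes. Kdm2b was singled out after its values were seen, for this lack of overlap. That separation by itself fixes p at 0.1, so no conclusion is drawn from the test. The transcripts behind the shift were not analysed here.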
